A study of Mus musculus with 21 samples.

Results

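The 10 genes described here are transcripts by which astrocytes, and astrocytes responding to injury, are commonly recognised. They were taken from the count table by symbol: the filament genes Gfap, Vim and Nes, the reactive genes Cd44, Serpina3n, Lcn2 and Steap4, and the general astrocyte genes Aldh1l1, Aqp4 and Aldoc. All 10 were among the 45664 gene rows, and all 10 were among the 22294 genes that passed the filter on low counts. The tissue was the ventral pons of C57BL/6 mice, a brainstem block that holds the facial nucleus together with neighbouring reticular and trigeminal nuclei. The right facial nerve was cut where it leaves the skull, at 8 weeks of age, and the lesion (right) and contralateral (left) pons were taken 7, 14 and 30 days later, at 9, 10 and 12 weeks of age. The left pons of unoperated mice aged 8 weeks was the day 0 group. Every group had 3 libraries, 21 in all. All animals, controls included, were CX3CR1GFP/wt, a genotype in which green fluorescent protein replaces 1 copy of the microglial receptor gene Cx3cr1. The labels do not say whether equal library numbers on both sides mark the same animal or whether the 3 libraries of a group came from 3 animals, so p-values measure the spread between these libraries only.

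Astrocytes are the glial cells that clear transmitter, buffer ions and water and line blood vessels. Around axotomised motor neurons they extend processes and build up glial fibrillary acidic protein, the filament encoded by Gfap, and this response is called reactive astrogliosis. Signals through the receptor subunit gp130 and the transcription factor STAT3 are known drivers of the reactive program. Because the tissue was bulk pons, fewer cells of a type and less RNA per cell cannot be told apart, and the cell that made a transcript was not measured.

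The tissue label was checked by markers. In every library the summed CPM (counts per 1e6 counts, TMM-scaled) was 5349 to 6528 for 7 astrocyte markers, 3864 to 5369 for 4 neuron markers, 19040.3 to 27328 for 4 oligodendrocyte markers and 179 to 352 for 5 motor neuron markers, with no marker of these lists at 0 throughout. The 7 microglia markers summed to 324 to 365, 320.1 to 386 and 341 to 354 CPM in the lesion pons at days 7, 14 and 30, against 221 to 245, 219.7 to 239 and 234 to 261 CPM in the contralateral pons. These ranges did not overlap on any day, and 7, 6 and 5 of the 7 microglia markers passed the test described below. Library totals were 35874913 to 41448945 counts at day 0 and 17358868 to 29827291 in the operated groups. Day and age moved together, and the lesion was always on the right, so their parts cannot be told apart. The column names give lane number 1 to days 0 and 7, lane 2 to day 14 and lane 3 to day 30. The index sequences (library tags) ACAGTG and GCCAAT each stand in the names of a day 0 and a day 7 library. Libraries with the same index cannot be separated within a lane, so the lane number does not show that days 0 and 7 were sequenced together. Day 0 therefore cannot be told apart from a sequencing run of its own. Day 0 stood apart from all 18 operated libraries in other cell markers. Neuron markers summed to 4668 to 5369 CPM in the operated libraries, against 3864 to 3945 CPM at day 0, oligodendrocyte markers to 19040.3 to 24499 CPM, against 25689.8 to 27328 CPM, and 4 endothelial markers to 158 to 211 CPM, against 224 to 253 CPM. The mitochondrial share of counts was 5.84% to 7.29% at day 30, against 3.05% to 3.60% at day 0. At day 30 the side letters of the deposited count columns are opposite to the labelled sides, and the sample descriptions, which assign each column, were followed, so the direction of every day 30 difference between the sides rests on them. Atf3, a transcription factor gene induced in axotomised neurons, stood at 10.1, 22.3 and 24.0 CPM in the libraries labelled day 30 lesion, against 1.83, 1.86 and 1.41 CPM in those labelled contralateral.

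Divided by gene length, the members spanned a wide range of levels. Mean RPKM (CPM divided by the gene length, in kilobases, given in the deposited count table) over the 21 libraries was 697 for Aldoc, 205 for Gfap, 74.1 for Aqp4, 43.8 for Serpina3n and 20.3 for Aldh1l1. It was 14.9 for Vim, 3.75 for Nes, 2.17 for Cd44, 0.446 for Lcn2 and 0.196 for Steap4. The ranges over libraries did not overlap between Aldoc and Gfap, between Gfap and Aqp4, or between Vim and Nes, while each other pair of neighbours in this order overlapped. Lcn2 and Steap4 rested on 7 to 117 and 6 to 40 counts per library, so small differences in them were not detectable at this depth. Between the highest and lowest library Aldoc differed 1.19-fold and Aldh1l1 1.34-fold, whereas Serpina3n differed 4.08-fold, Cd44 5.46-fold and Lcn2 9.89-fold.

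Cd44 and Serpina3n rose on the lesion side on all 3 days, and no other member passed the test there. The test was edgeR's quasi-likelihood F-test on counts, two-sided, with Benjamini-Hochberg adjustment over all 22294 genes and a threshold of 0.05. Lesion against contralateral pons asks what the cut nerve changes in operated mice. Of the 10 members 2 were higher and 0 lower at each of days 7, 14 and 30, while 1.56%, 2.58% and 1.04% of all genes tested were called higher and 0.0942%, 1.31% and 0.121% lower on these days. No member was lower at an unadjusted p under 0.05, and DESeq2 and limma-voom called none lower. With the library number as a replicate block 3, 5 and 3 members were called higher, beside 1.92%, 4.3% and 1.4% of all genes. The members added by the block were Gfap on every day and Vim and Aldh1l1 at day 14. At day 14 the libraries numbered 2 did not deviate together, so the pairing there was less clear than at days 7 and 30. The median log2 difference of the 10 members was 0.17, 0.19 and 0.28 on the 3 days, against -0.01, 0 and 0 over all genes. The 3 lesion libraries lay wholly above the 3 contralateral libraries for 3 members at day 7, 4 at day 14 and 3 at day 30. The same held for 7.26%, 10.7% and 9.71% of all genes. The smallest p of an exact permutation test with 3 libraries a side is 0.1, and for that reason each gene's spread was taken from the 7 groups together.

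**Figure D1:**
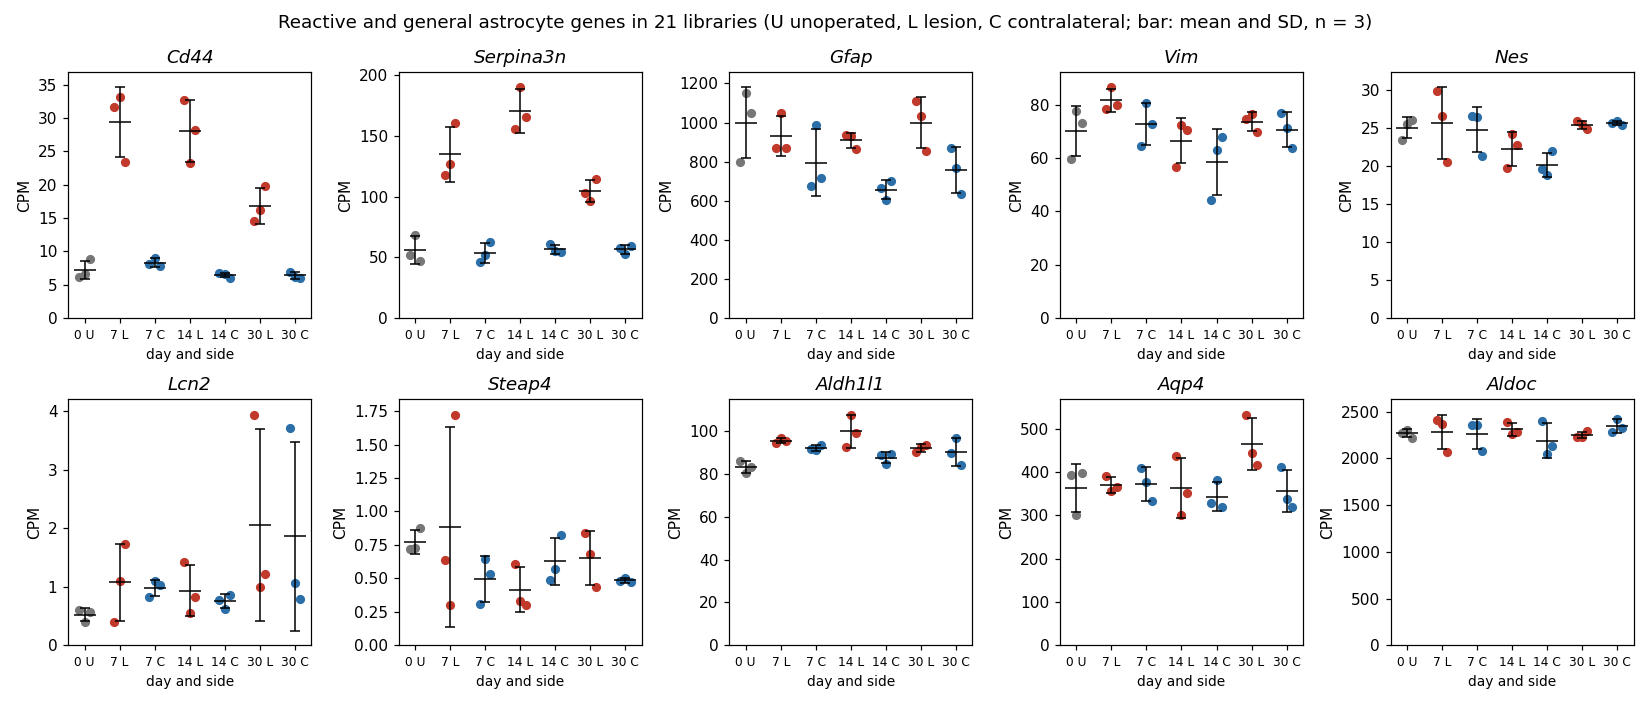
CPM of each of the 10 genes in every library, by day and side (points are libraries, horizontal bars the mean and vertical bars the SD of 3 libraries). Cd44 and Serpina3n stand above both other kinds of tissue in all 9 lesion libraries, while the remaining panels show ranges that mostly overlap.

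The promoters of the 2 called members are shown with those of Gfap and Steap4, which hold matches to a STAT motif, to let them be compared. RefSeq start-site sequences (GRCm38.p6) were used for 9 of the 10 members, and Aldoc had 2 of them. Each covered 250 bases before to 50 after a start site. Aqp4 was not among the 9, so its promoter was not searched. The search used 3 DNA words on both strands of these windows, TTCNNNGAA (STAT), TGANTCA (AP-1) and TTGCNNAA (C/EBP). Over 32851 mouse promoter windows of the same length, 8.3% held the STAT word, 7.81% the AP-1 word and 10.8% the C/EBP word. The 180 bases printed run 5′ to 3′ on the gene's strand, from 150 before to 30 after the start site, with matches in capitals.
Cd44, chr2:102901636-102901815, minus strand: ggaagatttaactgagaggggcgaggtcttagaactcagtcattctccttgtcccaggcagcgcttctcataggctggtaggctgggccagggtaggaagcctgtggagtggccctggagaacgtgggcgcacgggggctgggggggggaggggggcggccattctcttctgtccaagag
Serpina3n, chr12:104406558-104406737, plus strand: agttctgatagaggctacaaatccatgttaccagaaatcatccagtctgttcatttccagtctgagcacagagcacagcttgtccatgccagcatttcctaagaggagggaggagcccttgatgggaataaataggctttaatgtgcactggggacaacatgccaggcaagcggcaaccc
Gfap, chr11:102897171-102897350, minus strand: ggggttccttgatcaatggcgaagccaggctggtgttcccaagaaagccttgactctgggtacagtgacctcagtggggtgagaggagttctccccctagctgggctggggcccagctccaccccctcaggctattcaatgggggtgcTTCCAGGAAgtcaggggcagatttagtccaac
Steap4, chr5:7960322-7960501, plus strand: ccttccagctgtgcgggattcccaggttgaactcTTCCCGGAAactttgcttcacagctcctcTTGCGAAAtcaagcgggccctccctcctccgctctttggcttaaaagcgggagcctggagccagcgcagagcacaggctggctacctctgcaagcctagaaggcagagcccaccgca
None of the 3 words was found in the windows of Cd44 or Serpina3n. The Gfap window held 1 STAT word, which spans the start site, and the Steap4 window held 1 STAT and 1 C/EBP word upstream of it. Outside the printed sequences, Lcn2 and Aldh1l1 held 1 C/EBP word each, 1 of the 2 Aldoc windows held 2 STAT words, and Vim and Nes held none. A match is a run of letters and not a shown binding site.

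Cd44 encodes a cell-surface receptor for hyaluronan that astrocytes, microglia and other cells can carry (GRCm38 chromosome 2, 102811141 to 102901665, minus strand). At day 7 it stood at 31.6, 33.1 and 23.4 CPM in the lesion pons, against 8.16, 9.02 and 7.84 CPM in the contralateral pons. At day 14 it stood at 32.7, 23.3 and 28.2 CPM in the lesion pons, against 6.70, 6.59 and 6.08 CPM in the contralateral pons. At day 30 it stood at 14.5, 16.3 and 19.8 CPM in the lesion pons, against 6.98, 6.19 and 6.06 CPM in the contralateral pons. Every lesion library was above every contralateral library of its day and above the day 0 libraries, which had 6.24, 6.65 and 8.79 CPM. The log2 difference (± SE) was 1.81 ± 0.15, 2.12 ± 0.16 and 1.39 ± 0.16 at days 7, 14 and 30 (edgeR, adjusted p = 7.6e-08, 7.4e-09 and 1.5e-05). These correspond to 3.51-fold and 4.33-fold higher Cd44 on the lesion side at days 7 and 14. Against day 0 the lesion pons was higher by 2.02 ± 0.15, 1.95 ± 0.15 and 1.21 ± 0.15 in log2 (adjusted p = 2.7e-09, 2.7e-09 and 2.7e-06). In the contralateral pons Cd44 differed from day 0 by 0.21, -0.16 and -0.17, none past the threshold. The summed CPM of the 7 microglia markers was also higher on the lesion side on every day, as given above, and their part in the Cd44 difference was not tested. Of the 6 markers of blood monocytes and border macrophages, edgeR called 0 between the sides on any day, as did DESeq2 and limma-voom, with 1 lower at day 7 and 1 higher at day 30 at an unadjusted edgeR p under 0.05. In lesion against day 0 edgeR called 1, 0 and 2 of them higher at days 7, 14 and 30.

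Serpina3n encodes a secreted serine protease inhibitor and is among the transcripts most used to mark reactive astrocytes in mice (chromosome 12, 104406729 to 104414329, plus strand). At day 7 it stood at 118, 127 and 160.4 CPM in the lesion pons, against 46.7, 51.6 and 62.6 CPM in the contralateral pons. At day 14 it stood at 156, 190.2 and 166 CPM in the lesion pons, against 61.2, 55.0 and 54.5 CPM in the contralateral pons. At day 30 it stood at 103, 96.3 and 114 CPM in the lesion pons, against 57.7, 52.9 and 59.6 CPM in the contralateral pons. All 9 lesion libraries lay above all 9 contralateral ones and above day 0 (51.8, 68.8 and 47.5 CPM). The log2 difference was 1.33 ± 0.15, 1.58 ± 0.15 and 0.88 ± 0.15 (edgeR, adjusted p = 3.4e-05, 3.3e-06 and 0.0034). Against day 0 the lesion pons was higher by 1.27 ± 0.14, 1.61 ± 0.14 and 0.90 ± 0.14 (adjusted p = 1.3e-05, 7.9e-07 and 0.00025), and the contralateral pons differed by -0.06, 0.02 and 0.02. In the lesion pons at days 7, 14 and 30 the mean was 135 ± 22.5, 171 ± 17.7 and 104 ± 9.09 CPM (SD, n = 3 each).

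Serpina3n lies in a cluster of related inhibitor genes, so shared reads were looked for. Of its 2015 distinct 50-base words 139 (6.9%) also occur in transcripts of 7 other genes, 54 of them in Serpina3e-ps and 51 in Serpina3g, and how the counting treated such reads is not stated. Of the 10 other Serpina3 genes of the list, 6 had enough counts to test, and 1, 1 and 0 of these were higher on the lesion side at days 7, 14 and 30. That gene was Serpina3i, which shares no 50-base word with Serpina3n. It had 14, 8 and 24 counts in the lesion pons at day 7, against 2, 2 and 1 in the contralateral pons, and 19, 34 and 42 counts in the lesion pons at day 14, against 1, 2 and 1. Its log2 difference was 3.10 ± 0.51 and 4.20 ± 0.48 (edgeR, adjusted p = 0.00037 and 1.4e-06). DESeq2 called it at day 7 and gave it no adjusted p at day 14. The groups did not overlap for Serpina3i on either day, but the contralateral level rests on 1 or 2 counts a library, and the fitted fold depends on how such low counts are moderated. Serpina3m (1.20 ± 0.38, adjusted p = 0.072), Serpina3f (1.91 ± 1.05, 0.34) and Serpina3c (-0.66 ± 0.40, 0.40) did not pass at day 14. At day 30 Serpina3i had 8, 4 and 9 counts in the lesion pons, against 2, 2 and 2, and did not pass (1.49 ± 0.57, 0.41).

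**Figure D2:**
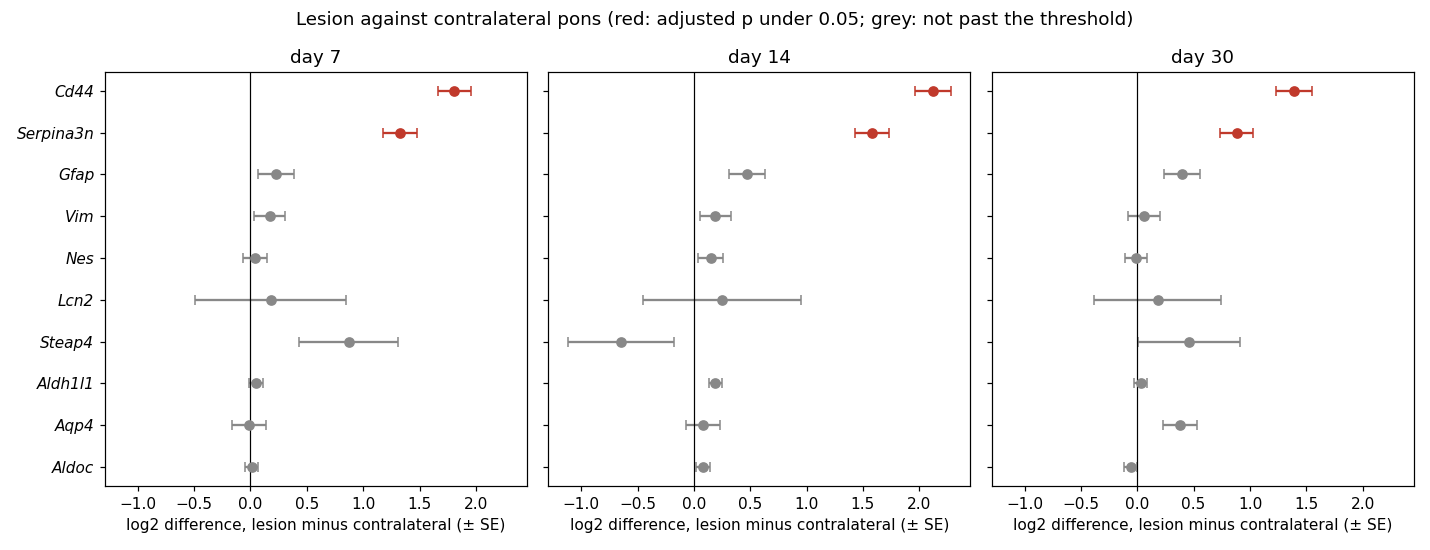
Log2 difference, lesion minus contralateral pons, of the 10 genes at days 7, 14 and 30 (points are edgeR estimates, bars ± SE, 3 libraries a side). Cd44 and Serpina3n are in red on all 3 days, Cd44 between 1.39 and 2.12, and the other 8 genes are in grey.

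Gfap, the main astrocyte filament, had fitted levels in the lesion pons 1.17-fold, 1.38-fold and 1.32-fold those of the contralateral pons at days 7, 14 and 30, and whether this passed the test depended on the fit (chromosome 11, 102887336 to 102900912, minus strand). At day 7 it stood at 870.2, 1048 and 871 CPM in the lesion pons, against 678, 989.7 and 718 CPM in the contralateral pons. At day 14 it stood at 935, 929.5 and 862 CPM in the lesion pons, against 664, 606 and 701 CPM in the contralateral pons. At day 30 it stood at 1111, 1035 and 854 CPM in the lesion pons, against 871, 770.0 and 634 CPM in the contralateral pons. The sides overlapped at days 7 and 30 and did not overlap at day 14. The log2 difference was 0.23 ± 0.16, 0.47 ± 0.16 and 0.40 ± 0.16 (edgeR, adjusted p = 0.95, 0.13 and 0.54), so Gfap was not called on any day in the fit over all groups. With the other 5 groups left out, the adjusted p at day 14 was 0.002. At days 7 and 30 libraries with the same number on both sides deviated together, and in each of the 3 number pairs of both days Gfap was higher on the lesion side, by 1.28-fold, 1.06-fold and 1.21-fold at day 7 and by 1.28-fold, 1.34-fold and 1.35-fold at day 30. With the replicate number as a block the adjusted edgeR p was 0.027 at day 7 and 2e-04 at day 30. The block was 1 fit over all 21 libraries, so the spread behind both values also drew on the day 14 libraries. At day 14, where the pairing was less clear, Gfap was higher on the lesion side by 1.41-fold, 1.53-fold and 1.23-fold in the number pairs. The block gave an adjusted edgeR p of 1.2e-05 there.

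Against unoperated pons, Gfap was not called in the lesion pons on any day, and in the contralateral pons it was lower at day 14. Day 0 had 800.3, 1150.0 and 1051 CPM, and the lesion pons differed from it by -0.11 ± 0.16, -0.14 ± 0.16 and 0.00 ± 0.16 in log2 at days 7, 14 and 30. The contralateral pons differed from day 0 by -0.33 ± 0.16, -0.61 ± 0.16 and -0.40 ± 0.16 (edgeR, adjusted p = 0.25, 0.019 and 0.12), so it was called lower there at day 14. The neuron, oligodendrocyte and endothelial marker sums given above also separated these groups, and their part in the difference was not tested. All 3 contralateral libraries of day 14 were below all 3 of day 0, while at days 7 and 30 the groups overlapped. Both contrasts with the contralateral pons share the contralateral libraries, so they are not separate observations. The day 14 call was lost without day 0 library 2 (-0.49, adjusted p = 0.10) or 3 (-0.56, 0.062) and without contralateral library 1 (-0.61, 0.051) or 2 (-0.55, 0.080).

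Vim and Nes encode vimentin and nestin, filaments that are typical of immature glia and return in strongly reactive astrocytes. Vim (chromosome 2, 13573927 to 13582826) averaged 81.5 ± 4.32, 66.5 ± 8.52 and 73.6 ± 3.58 CPM in the lesion pons at days 7, 14 and 30 and 72.6 ± 7.92, 58.5 ± 12.4 and 70.5 ± 6.57 CPM in the contralateral pons (SD, n = 3 each). Its log2 difference was 0.17, 0.19 and 0.06 (SE 0.14 each, edgeR adjusted p = 0.98, 0.52 and 0.96), and the sides overlapped on every day. At day 14, where the pairing was less clear, the replicate block gave 0.20 ± 0.06 for Vim (edgeR, adjusted p = 0.048). Nes (chromosome 3, 87971078 to 87980451) averaged 25.6 ± 4.72, 22.2 ± 2.28 and 25.4 ± 0.533 CPM in the lesion pons and 24.7 ± 2.95, 20.1 ± 1.59 and 25.6 ± 0.263 CPM in the contralateral pons. Its log2 difference was 0.04, 0.15 and -0.01, with estimates ± 2 SE of -0.17 to 0.25, -0.07 to 0.36 and -0.22 to 0.20. The sides overlapped for Nes on every day. At day 14 Nes was 19.5, 18.8 and 21.9 CPM in the contralateral pons, against 23.4, 25.5 and 26.0 CPM at day 0, without overlap. It was lower than at day 0 by 0.31 ± 0.10 in log2 (edgeR, adjusted p = 0.038). This call was lost without day 0 library 2 or 3 (adjusted p = 0.12 each), without contralateral library 1 (0.12) or 2 (0.16) and in the deposited log2 matrix (0.099). The neuron, oligodendrocyte and endothelial marker sums also separated day 0 from these libraries, and their part in the Nes difference was not tested.

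Of the 8 other filament and filament-partner genes of the list, 0 were higher and 1 lower at day 7, 1 higher and 1 lower at day 14, and 0 of either kind at day 30 with edgeR. DESeq2 and limma-voom each called 1 higher and 1 lower at days 7 and 14 and 1 lower at day 30, and at an unadjusted edgeR p under 0.05 there were 4 higher and 1 lower at day 7 and 2 of each at day 30. Both genes that passed with edgeR encode neuronal filaments. Nefl, the light neurofilament chain, fell by 0.22 ± 0.06 at day 7 and by 0.20 ± 0.06 at day 14 in log2 (edgeR, adjusted p = 0.042 and 0.039), and it stood at 1277 to 1319 CPM in the lesion pons at day 7, against 1419 to 1608 CPM in the contralateral pons. Prph, peripherin of motor and sensory neurons, rose by 0.83 ± 0.19 at day 14 (adjusted p = 0.021), with 127, 194 and 159.8 CPM in the lesion pons, against 97.5, 85.1 and 88.4 CPM in the contralateral pons. Synm, which encodes the filament protein synemin found in astrocytes, had 0.22 ± 0.07 at day 30 (adjusted p = 0.21), and the linker gene Plec had 0.19 ± 0.08 at day 7 (0.46). The median of the 8 genes was 0.13, 0.03 and -0.06 on the 3 days, against -0.01, 0 and 0 over all genes. Among all genes edgeR called 1.56%, 2.58% and 1.04% higher on these days and 0.0942%, 1.31% and 0.121% lower.

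Lcn2 encodes lipocalin 2, an iron-carrier-binding protein secreted by reactive astrocytes and stored in neutrophils (chromosome 2, 32384633 to 32388252, minus strand). It was not called between the sides on any day, with log2 differences of 0.18 ± 0.67, 0.25 ± 0.70 and 0.18 ± 0.56 at days 7, 14 and 30. At day 30 it stood at 3.94, 0.999 and 1.22 CPM in the lesion pons (117, 22 and 25 counts), against 3.71, 1.07 and 0.799 CPM in the contralateral pons (77, 19 and 17 counts). The libraries numbered 1 of both sides stood apart from the other 19 of the series, which had 0.398 to 1.72 CPM. The value of 1.72 CPM was that of day 7 lesion library 3, which was rich in choroid plexus transcripts, as given below for Steap4. Against day 0 (0.607, 0.398 and 0.567 CPM) the day 30 lesion pons was higher by 2.02 ± 0.61 (edgeR, adjusted p = 0.025) and the day 30 contralateral pons by 1.84 ± 0.63 (0.059). The contralateral value ran from 0.82 to 2.22 over the alternatives and was called with filterByExpr (adjusted p = 0.042), with DESeq2 (0.0068) and without contralateral library 3 (0.029). The lesion value was 1.08 without both libraries numbered 1 (adjusted p = 0.069) and 1.08 without the lesion library alone (0.23), and without day 0 libraries 1, 2 or 3 its adjusted p was 0.051, 0.097 and 0.060. In the deposited log2 matrix it was 0.064, and with all libraries thinned to the smallest total 0.064.

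Markers of neutrophils were looked at beside Lcn2. The 8 markers summed to 3.06, 3.27 and 0.778 CPM in the day 30 lesion libraries 1, 2 and 3, against 5.35, 2.31 and 1.27 CPM in the contralateral libraries, and to 1.16 to 2.30 CPM at day 0. The sum in contralateral library 1 was the highest of the 21, and in lesion library 1 it was close to that of lesion library 2, in which Lcn2 was low. S100a8, a defining neutrophil gene, stood at 0.640 CPM in lesion library 1 and 0.963 CPM in contralateral library 1. The part of neutrophils in the 2 high Lcn2 values was not tested.

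Steap4, a metalloreductase gene that is often listed with reactive astrocytes, was near the lower limit of what the libraries could measure (chromosome 5, 7960457 to 7982213, plus strand). It stood at 0.635, 0.299 and 1.72 CPM in the lesion pons at day 7 (11, 6 and 40 counts), against 0.308, 0.648 and 0.535 CPM in the contralateral pons (6, 13 and 11 counts). The log2 difference was 0.87 ± 0.44, -0.65 ± 0.47 and 0.46 ± 0.45 at days 7, 14 and 30 (edgeR, adjusted p = 0.73, 0.50 and 0.89). The value of 1.72 CPM in day 7 lesion library 3 was the highest of the 21, and without that library the day 7 difference was -0.13. The same library had 4353 CPM of Ttr and 87.4 CPM of Kl, transcripts of the choroid plexus, against 37.0 to 50.0 and 6.12 to 8.71 CPM in the other lesion libraries of day 7. At day 14 the 5 ependyma and choroid plexus markers summed to 155, 90.7 and 946 CPM in contralateral libraries 1, 2 and 3, which had 0.489, 0.571 and 0.822 CPM of Steap4. They summed to 128, 406 and 54.2 CPM in the lesion libraries of that day. The part of choroid plexus in the Steap4 values was not tested. Lesion libraries of day 14 had 0.608, 0.335 and 0.301 CPM of Steap4, all below day 0 (0.718, 0.726 and 0.877 CPM), with a difference of -0.94 ± 0.42 that did not pass (edgeR, adjusted p = 0.14), and 13.8% of all genes lay wholly below day 0 in the same way.

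**Figure D3:**
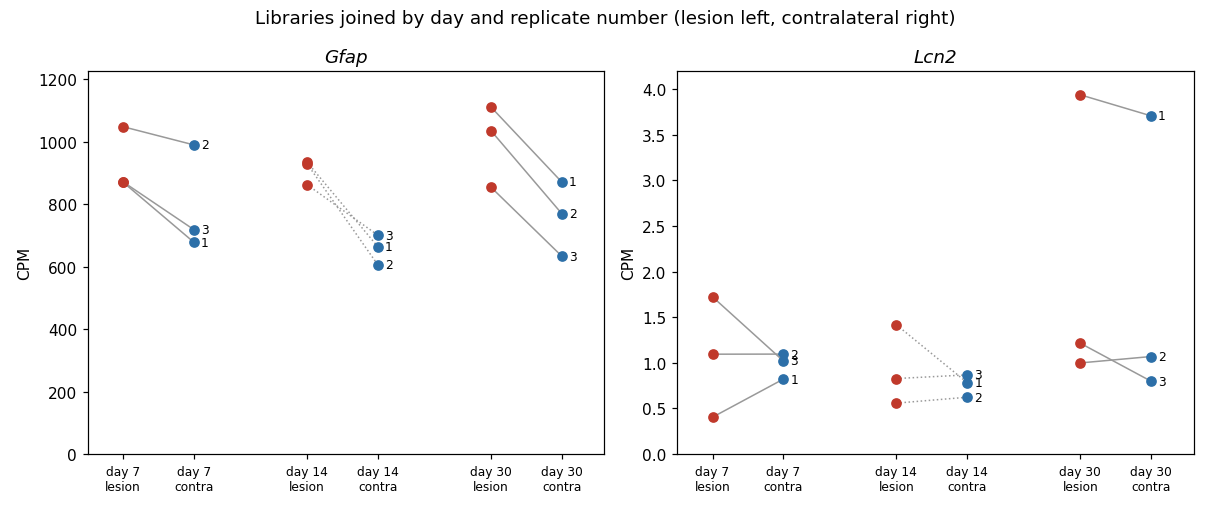
Gfap and Lcn2 in CPM, with lesion and contralateral libraries of the same day and number joined (numbers beside the contralateral points, dotted at day 14, where the pairing was less clear). Gfap is higher on the lesion side in every joined pair, by 1.06-fold to 1.53-fold, and both day 30 libraries numbered 1 stand apart for Lcn2, at 3.94 and 3.71 CPM.

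None of the 3 general astrocyte genes was called between the sides. Aldh1l1, a folate-cycle enzyme used as a pan-astrocyte marker (chromosome 6, 90486427 to 90600203, plus strand), stood at 94.5, 96.5 and 95.3 CPM in the lesion pons at day 7, against 91.3, 91.2 and 93.4 CPM in the contralateral pons. At day 14 it stood at 92.4, 108 and 98.9 CPM in the lesion pons, against 88.8, 84.6 and 89.0 CPM in the contralateral pons. The sides did not overlap on these 2 days, yet the log2 differences of 0.05 ± 0.06 and 0.19 ± 0.06 did not pass (edgeR, adjusted p = 0.99 and 0.064). At day 14 the adjusted p was 0.046 with another filter on low counts (filterByExpr), 0.031 with DESeq2 and 0.015 without lesion library 1. It was also 0.046 with the replicate block in edgeR, where the pairing of that day was less clear. At day 30 the difference was 0.03 ± 0.06 (adjusted p = 0.95).

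At days 7 and 14 Aldh1l1 was higher in the lesion pons than at day 0, where it stood at 86.1, 80.2 and 83.1 CPM. The log2 difference was 0.20 ± 0.06, 0.26 ± 0.06 and 0.14 ± 0.06 at days 7, 14 and 30 (edgeR, adjusted p = 0.020, 0.0017 and 0.070), and no lesion library lay in the day 0 range on any of the 3 days. The contralateral pons differed from day 0 by 0.15 ± 0.06, 0.07 ± 0.06 and 0.12 ± 0.06 (adjusted p = 0.11, 0.43 and 0.19). The day 7 lesion call was lost without day 0 library 2 (0.17, adjusted p = 0.081) or 3 (0.059) and without lesion library 2 or 3 (0.062 each), and the day 14 call when other groups were left out of the fit (0.056). The day 30 difference was called with filterByExpr (adjusted p = 0.030) and with DESeq2 (0.032). Aldh1l1 shares 105 exon bases with Gm45901 on its own strand and 499 with Gm15756 on the opposite strand. Its exons cover 4516 bases. Whether reads were counted by strand is not given in the sources used here. Reads of these genes that fall on the shared bases cannot be told apart from its own.

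Aqp4, the water channel of astrocyte endfeet, stood at 533, 445 and 418 CPM in the lesion pons at day 30, against 412, 339 and 319 CPM in the contralateral pons (chromosome 18, 15389496 to 15410982, minus strand). The sides did not overlap and each number pair had Aqp4 higher on the lesion side, by 1.29-fold, 1.31-fold and 1.31-fold, but the log2 difference of 0.38 ± 0.15 did not pass (edgeR, adjusted p = 0.47). At days 7 and 14 the difference was -0.01 ± 0.15 and 0.08 ± 0.15, with overlapping sides. Aldoc, the aldolase isoform of astrocytes (chromosome 11, 78322968 to 78327781, plus strand), had the most even level of the 10 members. It averaged 2284 ± 186, 2310.2 ± 67.5 and 2252 ± 34.2 CPM in the lesion pons at days 7, 14 and 30 and 2264 ± 163, 2189.7 ± 185 and 2343 ± 74.0 CPM in the contralateral pons (SD, n = 3 each). Its log2 difference was 0.01, 0.08 and -0.06 (SE 0.06 each), and its estimates ± 2 SE stayed between -0.19 and 0.21.

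Of 20 further general astrocyte genes 0, 2 and 0 were higher on the lesion side at days 7, 14 and 30. Among all genes 1.56%, 2.58% and 1.04% were called higher. Of the 20 genes 0 were lower, and the medians were -0.03, 0.03 and 0.02. At an unadjusted p under 0.05 the count was 0, 3 and 0 (edgeR), and DESeq2 called 0, 3 and 0. The 2 genes were Clu, which encodes the lipid carrier clusterin (0.24 ± 0.06, edgeR adjusted p = 0.014), and Ndrg2 (0.20 ± 0.06, 0.049). Clu stood at 797, 900.5 and 798 CPM in the lesion pons at day 14, against 719, 678 and 709 CPM in the contralateral pons. Apoe, the main lipid carrier of the brain, had 0.36 ± 0.11 (adjusted p = 0.066), and S100b, a calcium-binding protein, 0.18 ± 0.09 (0.29). The summed CPM of the 7 astrocyte markers overlapped between the sides at days 7 and 14 and was 6181 to 6528 in the lesion pons at day 30, against 5642 to 6030.2 in the contralateral pons.

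Lesion pons against day 0 asks how operated tissue compares with tissue that never had an operation. Of the 10 members 3 were higher at each of days 7, 14 and 30, while 8.14%, 9.78% and 12.7% of all genes were called higher. None of the 10 was lower with edgeR, DESeq2 or limma-voom, with 0, 1 and 0 lower at an unadjusted edgeR p under 0.05, and 4.32%, 7.03% and 9.69% of all genes were called lower. Cd44 and Serpina3n were called on all 3 days, Aldh1l1 at days 7 and 14, and Lcn2 at day 30. Lesion libraries lay wholly above day 0 for 4, 3 and 5 members, where 15%, 14.6% and 19.1% of all genes did so. Vim was among the 4 at day 7, with 78.3, 86.5 and 79.9 CPM in the lesion pons, against 59.7, 77.7 and 73.1 CPM at day 0, and a log2 difference of 0.22 ± 0.14 that did not pass (edgeR, adjusted p = 0.36). Aqp4 was among the 5 at day 30 (0.35 ± 0.15, edgeR adjusted p = 0.096, and 0.034 with limma-voom). At day 30 DESeq2 and limma-voom each called 4 members higher. The marker sums that separated day 0 from the operated libraries apply to these differences too, and their part was not tested.

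Contralateral pons against day 0 asks whether the side with the intact nerve moved after the operation. Of the 10 members 0, 0 and 0 were higher and 0, 2 and 0 lower at days 7, 14 and 30, with 3.66%, 6.73% and 6.81% of all genes called lower and 6.84%, 9.09% and 9.32% higher. The 2 members were Gfap and Nes, described above. At an unadjusted edgeR p under 0.05 the count at day 7 was 1 higher and at day 30 1 higher and 1 lower, while DESeq2 called 0 at day 7 and 1 at day 30. Contralateral libraries lay wholly below day 0 for 1, 2 and 1 members (13.6%, 17.1% and 17.1% of all genes) and wholly above it for 2, 1 and 1 (12.9%, 16% and 16.2%). The member above it on every day was Lcn2, with 0.821, 1.10 and 1.02 CPM at day 7 and 0.783, 0.623 and 0.868 CPM at day 14, and differences of 0.91 ± 0.69 and 0.54 ± 0.71 that did not pass. All comparisons with day 0 share the same 3 day 0 libraries. Day 0 also differed from the operated libraries in the marker sums given above and cannot be told apart from a sequencing run of its own. The part of these in the contralateral differences was not tested.

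The lesion effect of a member was also compared between days. For Cd44 it differed by 0.30 ± 0.22 between days 7 and 14 (day 14 minus day 7) and by -0.73 ± 0.22 between days 14 and 30 (edgeR, adjusted p = 0.85 and 0.17). For Serpina3n it differed by 0.25 ± 0.20 and -0.70 ± 0.20 (adjusted p = 0.86 and 0.17). No member passed in any of the 3 comparisons of days, where 0%, 0.0807% and 0.0269% of all genes were called (day 14 minus 7, day 30 minus 14 and day 30 minus 7). At an unadjusted edgeR p under 0.05 the count of members was 1, 2 and 1, all lower on the later day. The share of all genes at that threshold is not given here. The members were Steap4 for day 14 minus 7, Cd44 and Serpina3n for day 30 minus 14, and Serpina3n for day 30 minus 7. Steap4 differed by -1.52 ± 0.64 and had 6 to 40 counts a library. Its day 7 difference depended on lesion library 3, as given above. Cd44 and Serpina3n had positive estimates for day 14 minus 7. For Serpina3n the day 30 minus day 14 difference had an adjusted p of 0.020 with DESeq2 and 0.0084 when other groups were left out of the fit. With the replicate block it was 0.00055 for Serpina3n and 0.027 for Cd44, beside 1.47% of all genes called lower in that fit, but the contrast uses the day 14 libraries, whose pairing by number was less clear. For Gfap the day 30 minus day 14 difference was -0.07 ± 0.23, so its small lesion effect did not differ detectably between these days.

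Of the 31 other genes of the reactive astrocyte list 4, 6 and 4 were higher on the lesion side at days 7, 14 and 30. Among all genes 1.56%, 2.58% and 1.04% were called higher. Of the 31 genes 0 were lower with edgeR, DESeq2 or limma-voom or at an unadjusted edgeR p under 0.05. The medians of the 31 were 0.21, 0.35 and 0.38, against -0.01, 0 and 0 over all genes. H2-D1, a class I histocompatibility gene, stood at 166, 168 and 176 CPM in the lesion pons at day 30, against 89.5, 99.6 and 85.4 CPM in the contralateral pons (0.89 ± 0.07, edgeR adjusted p = 2.6e-08). The sides did not overlap, and its difference was 0.34 ± 0.08 at day 7 and 0.56 ± 0.08 at day 14 (adjusted p = 0.010 and 1.4e-05). The metalloprotease inhibitor gene Timp1 rose by 2.72 ± 0.26, 1.59 ± 0.27 and 2.15 ± 0.27 at days 7, 14 and 30 (adjusted p = 1e-07, 4e-04 and 1.3e-05). The heat-shock gene Hspb1 rose by 1.00 ± 0.14 and 0.85 ± 0.13 at days 7 and 14 (adjusted p = 2.9e-05 and 0.00019) and did not pass at day 30 (0.32 ± 0.13, 0.54). S100a10, an annexin partner, rose by 0.97 ± 0.16 and 1.12 ± 0.16 at days 7 and 14 (adjusted p = 0.0018 and 0.00037) and did not pass at day 30 (0.15 ± 0.16, 0.90). Injured neurons are also known to express Hspb1. The remaining called genes, named after their values were seen, were the pentraxin gene Ptx3 (1.87 ± 0.37, adjusted p = 0.0024) and the immunoproteasome gene Psmb8 (0.80 ± 0.19, 0.013) at day 14, and the class I gene H2-T23 (0.69 ± 0.13, 0.0023) and Psmb8 (0.72 ± 0.17, 0.036) at day 30. The complement gene C3, often used to mark neurotoxic reactive astrocytes, had -0.09 ± 0.14, 0.14 ± 0.14 and 0.47 ± 0.14 (adjusted p = 1, 0.65 and 0.13), and it too was named after its values were seen. Of 5 T cell markers 2 passed at day 30, and Cd8a, which marks cytotoxic T cells, had 31, 8 and 6 counts in the lesion pons, against 0, 0 and 0 in the contralateral pons. The part of T cells and of microglia in these differences was not tested.

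**Figure D4:**
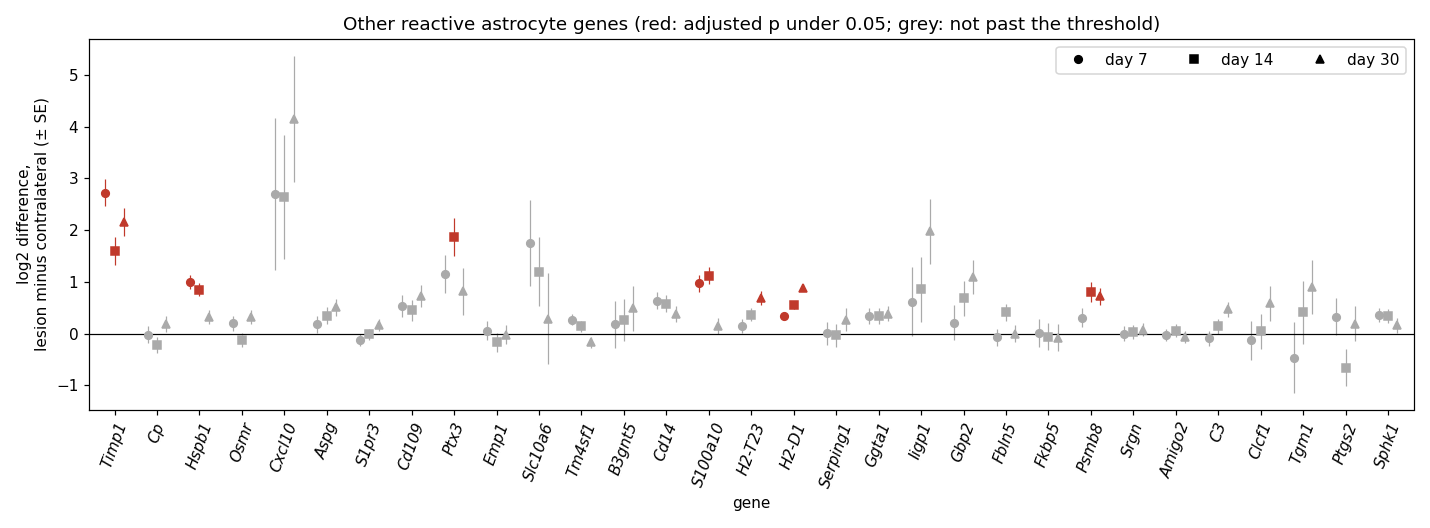
Log2 difference, lesion minus contralateral pons, of 31 further reactive astrocyte genes at days 7, 14 and 30 (points are edgeR estimates, bars ± SE, 3 libraries a side). Genes past the threshold, in red, number 4, 6 and 4 on the 3 days and are all above 0.

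Genes of the gp130 and STAT3 pathway, which is known to drive Gfap, were described from a list of 18, of which Osmr and Clcf1 also stand in the reactive list. Of the 18 genes 2, 2 and 1 were higher on the lesion side at days 7, 14 and 30 with edgeR. Among all genes 1.56%, 2.58% and 1.04% were called higher on these days and 0.0942%, 1.31% and 0.121% lower. None of the 18 was lower with edgeR, and their medians were 0.09, 0.04 and 0.14, against -0.01, 0 and 0 over all genes. DESeq2 and limma-voom also called 0 lower, and at an unadjusted edgeR p under 0.05 there was 1 lower at day 7. Socs3, the feedback inhibitor that STAT3 induces, stood at 4.51, 4.73 and 4.93 CPM in the lesion pons at day 14, against 1.91, 0.986 and 1.28 CPM in the contralateral pons. The sides did not overlap on any day, and its log2 difference was 1.43 ± 0.23, 1.76 ± 0.23 and 1.25 ± 0.24 (edgeR, adjusted p = 0.00022, 9.7e-06 and 0.0039). Stat3 itself rose by 0.37 ± 0.06 at day 7 and 0.31 ± 0.06 at day 14 (adjusted p = 0.00023 and 0.0015), with 105, 105 and 105 CPM in the lesion pons at day 7, against 79.8, 83.7 and 80.1 CPM in the contralateral pons. At day 30 Stat3 did not pass. Il6ra, a receptor for interleukin 6, had 0.47 ± 0.15 at day 14 (adjusted p = 0.070) and the kinase gene Jak1 0.14 ± 0.06 at day 7 (0.39). STAT3 is known to act in axotomised neurons and microglia too, and the cells that carried these transcripts were not measured.

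Likeness of pattern across the 21 libraries was taken for the 2 members called between the sides. It was sought among 13423 genes with at least 1 CPM on average, with predicted, clone-based, pseudogene and mitochondrial symbols left out. Those whose log2 CPM correlated most with Cd44 were Atf3 (Pearson r = 0.98), the laminin receptor gene Itga7 (0.97) and the neuropeptide gene Gal (0.97). For Serpina3n they were the neuropeptide gene Npy (0.97), the annexin gene Anxa10 (0.96) and Gal (0.96). Cd44 and Serpina3n correlated at 0.91 with each other, against 0.47 and 0.40 with Gfap, and Vim with Gfap at 0.59. These are descriptions over libraries that fall into lesion and other groups and share depth and day with each other, and they say nothing of shared control. The 5 motor neuron markers summed to 179 to 288 CPM in the lesion pons at day 7, against 193 to 267 CPM in the contralateral pons, with overlap. Their sum was 191 to 233 in the lesion pons at day 14, against 242 to 275 in the contralateral pons, and 183 to 226 at day 30, against 231 to 352, without overlap. The sum includes Prph, which rose on the lesion side at day 14 as given above. The median log2 difference of the 5 markers was -0.70, -1.04 and -0.72 at days 7, 14 and 30. At day 14 edgeR called 2 of them lower and 1 higher, and at days 7 and 30 it called 0. The part of motor neurons in the members' values was not tested.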

How the data were processed

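Libraries were made from total RNA of microdissected ventral pons (300 ng each) and sequenced as 50-base reads, per the labels' protocols. Per the submitters' processing notes, CASAVA 1.8.2, Subread, featureCounts and limma were used with the build GRCm38.p4. The deposited table holds whole-number counts per gene made by the authors, and a second deposited table holds log2 values per library. Whether reads were counted by strand is not given in the sources used here.

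Genes with a summed count above 29, the 32nd percentile of the 32815 genes with a count, were kept, which left 22294. The robust quasi-likelihood F-test of edgeR 4.0.16 (R 4.3.3), with TMM scaling and 14 residual degrees of freedom over the 7 groups, was applied to 12 comparisons, each adjusted over all genes, with limma 3.58.1 and DESeq2 1.42.0 as alternatives. The fit was tested on simulated data with known changes. CPM and RPKM were computed from the counts, RPKM with the gene lengths of the deposited count table. The deposited log2 matrix was checked against the counts: all 21 libraries correlated best with their own column (lowest r = 0.997). Library numbers were taken to pair the sides of a day where the deviations of same-numbered libraries from their group means correlated above 0.1 for each of the 3 numbers. The correlations were 0.27, 0.24 and 0.17 at day 7, 0.27, 0.00 and 0.17 at day 14 and 0.21, 0.21 and 0.19 at day 30, so days 7 and 30 were taken as paired from the data, with no label that says so. At day 14 only number 2 fell short, which does not show that the libraries of that day were unpaired.

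The 10 members and the gene lists were chosen with earlier results of these data known. From each list the 4 genes with the smallest adjusted p between the sides were named, and for likeness the 3 most correlated genes of each member called. Gene positions are those of GENCODE M21 on GRCm38.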

Additional observations from a re-analysis of the deposited data

How the results depend on the processing

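Cd44 and Serpina3n stayed past the adjusted threshold on the lesion side on each day under every alternative run (16, 16 and 17 of them), with Cd44 at 1.72 to 1.95, 2.00 to 2.23 and 1.26 to 1.56 in log2 and Serpina3n at 1.18 to 1.46, 1.5 to 1.65 and 0.81 to 0.93. Requiring a log2 difference of at least 1.7 as well left 1, 1 and 0 members called between the sides at days 7, 14 and 30, 1, 1 and 1 in lesion against day 0, and 0 in contralateral against day 0 at day 14. With the replicate block 5 members were called at day 14, where the pairing was less clear, and 2 in the day 30 minus day 14 difference, which was 1 with DESeq2 and 1 when other groups were left out of the fit. At days 7 and 30 the block changed no member's call but that of Gfap. Contralateral pons against day 0 gave 1 member at day 14 with the deposited log2 matrix, and 1 at day 30 with filterByExpr, with DESeq2 and with limma-voom. Leaving out 1 library at a time gave 0 to 2 members in contralateral against day 0 at day 14 and 0 to 1 at day 30, 2 to 3 between the sides at day 14, and 2 to 3 in lesion against day 0 at days 7 and 30. Of 120 results for single members, none that was called changed direction. Over all genes, 368, 866 and 259 were called between the sides, and 68, 102 and 65 with the 1.7 requirement. The day 14 count was 1983 without lesion library 1, 432 to 521 without lesion library 2 or any contralateral library, 1898 with the block, 499 with the deposited matrix and 435 with other groups left out. The day 30 count was 569 with other groups left out, 158 without contralateral library 3, 167 without lesion library 3 and 158 without both libraries numbered 1, an alternative chosen after seeing the data, as was thinning all libraries to the smallest total. The count for day 30 minus day 14 was 18, with 4 to 938 over the alternatives that left out libraries. The cause of these shifts was not tested. Counts of 6 to 117 in Lcn2 and Steap4 and 3 libraries a group limit what could be detected.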
